A study of Mus musculus with 10 samples.

Results

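The genes examined here are 10 genes of fatty acid synthesis, desaturation and elongation, Acly, Acss2, Acaca, Fasn, Scd1, Scd2, Elovl5, Elovl6, Fads1 and Fads2. They were taken by their symbols in the GENCODE mouse annotation (GRCm38, release 21) from a table of 18381 genes, and all 10 were present in the table and passed the filter on low counts. The expression data come from first lower molars of wild type C57BL/6JOlaHsd mouse embryos at embryonic day 14 (E14), a stage at which the molar holds dental epithelium and dental mesenchyme. Each of 5 embryos, numbered 1, 2, 3, 4 and 6, gave a molar to each treatment. The IGF1 molar was kept for 6 h in a hanging drop with mouse recombinant insulin-like growth factor 1 at 750 ng per ml in PBS and BSA, and the control molar had the same volume of PBS and BSA without the factor. There are therefore 5 IGF1 and 5 control samples, each a whole single tooth, and the comparison asks which of these genes changed in the tooth that received IGF1.

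Fatty acids are built in the cytosol from acetyl-CoA. Acly makes acetyl-CoA from the citrate that mitochondria export, and Acss2 makes it from acetate. Acaca turns acetyl-CoA into malonyl-CoA in the committed step of the pathway, and Fasn joins these units into palmitate. Elovl6 lengthens palmitate to stearate, and Scd1 and Scd2 place the first double bond in these saturated chains. Fads2, Elovl5 and Fads1 act in that order on the essential polyunsaturated fatty acids taken from the diet or the mother. Many of these genes are textbook targets of the sterol regulatory element binding proteins, which are encoded by Srebf1 and Srebf2, and insulin is a classic signal for the pathway in liver.

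The libraries held between 2845773 and 8403151 counts for control teeth and between 3456634 and 8763113 for IGF1 teeth, and both teeth of embryo 1 had the lowest totals. Levels are given as CPM, the counts of a gene scaled to the total of its library after TMM normalization. Dental epithelium markers were present in every sample, their 10 genes summing to between 2155 and 3314 CPM in controls and between 2449 and 3416 CPM with IGF1. Mesenchyme markers summed to between 6984 and 9168 CPM in controls and between 6312 and 8937 CPM with IGF1. Of these marker lists, 1 of 10 epithelial genes (Krt5) was higher and 3 of 10 mesenchymal genes (Vim, Pdgfra and Pdgfrb) were lower with IGF1, where 6.72% of all 14504 genes tested were called higher and 4.76% lower. Lower calls were also found for 1 of 6 endothelial genes, 1 of 5 tested macrophage genes and 4 of 5 tested red blood cell genes. Without the replicate block 1 mesenchymal gene was the only call left in these marker lists. Of 3 tested glial genes 0 were called by edgeR or DESeq2, 1 had an unadjusted p under 0.05, and limma-voom called 1 lower. The adipocyte markers Adipoq, Plin1, Cidec and Lep have no entry in the table used here, and the other 4 adipocyte genes summed to between 8.78 and 17.2 CPM in controls and between 9.42 and 16.8 CPM with IGF1. In a bulk sample, fewer cells of a type and less RNA per cell cannot be told apart, and the part of cell composition in the changes below was not tested.

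Most of the fatty acid genes rose in the IGF1 teeth. The quasi-likelihood test of edgeR, with embryo as a block, called 9 of the 10 genes higher (adjusted p under 0.05), whereas it called 6.72% of the 14504 genes tested higher. It called 0 of the 10 genes lower, against 4.76% of the genes tested, and all 10 had a positive log2 fold change. The exception among the calls was Elovl5. The median log2 fold change of the 10 genes was 1.15, beside a median of 0.00 for all genes tested. Of the 9 called genes 8 at least doubled, and Acly lay just short of a doubling. For each of the 10 genes every IGF1 sample lay above every control sample, a separation shown by 4.21% of the genes tested, while 0 of the 10 had every IGF1 sample below every control sample (3.03% of the genes tested). All 10 were higher with IGF1 in 5 of 5 embryos, as were 13.0% of the genes tested. Together the 10 genes took between 1927 and 2084 CPM of each control sample and between 4629 and 5197 CPM of each IGF1 sample.

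**Figure D1:**
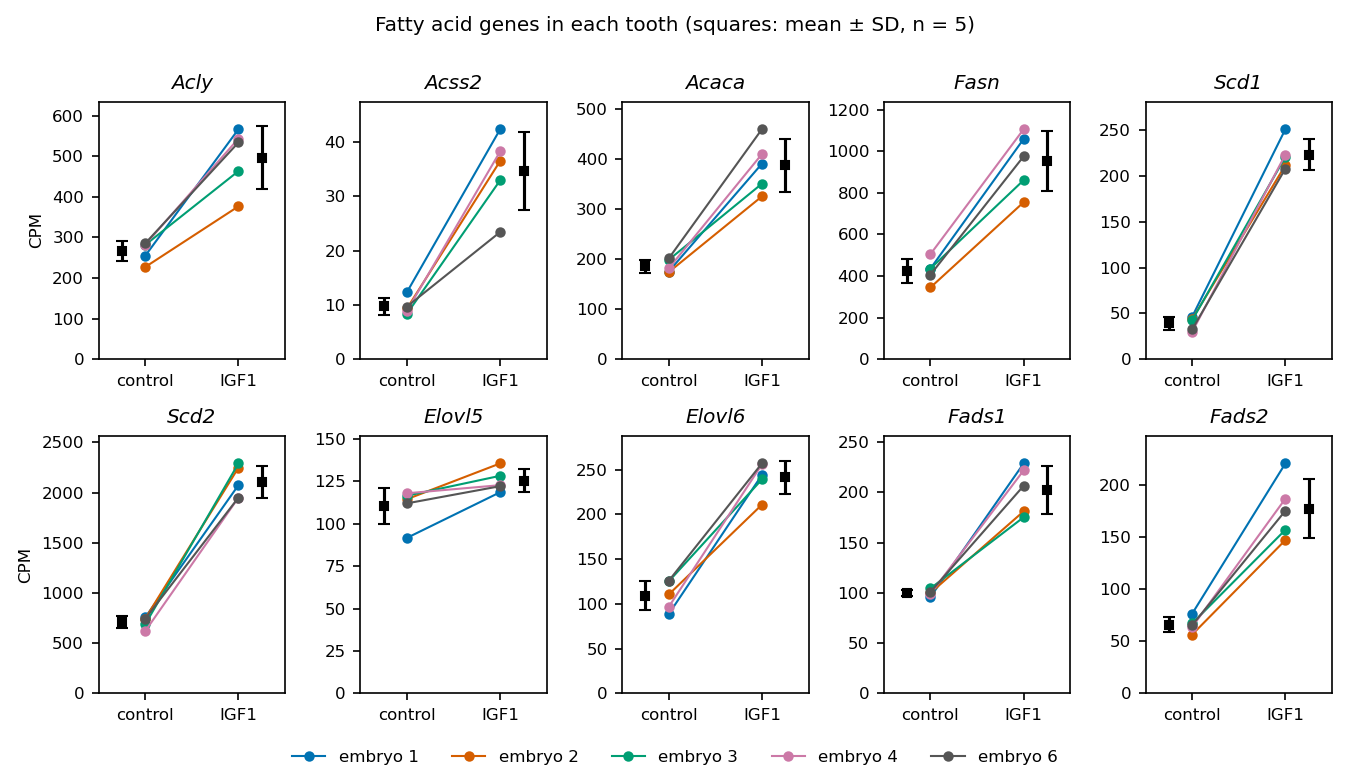
Level of each of the 10 genes in CPM (vertical axes, starting at 0) in the control and IGF1 tooth of each embryo, with lines joining teeth of the same embryo and squares showing the mean and SD of 5 teeth. All lines rise, and relative to the control level the mean rise is smallest for Elovl5.

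Acly, which supplies cytosolic acetyl-CoA from citrate, lies on chromosome 11 from 100476353 to 100528000. It had 255, 227, 282, 283 and 285 CPM in the control teeth of embryos 1, 2, 3, 4 and 6, and 567, 377, 464, 544 and 534 CPM in their IGF1 teeth. The groups did not overlap, with the IGF1 tooth of embryo 2 lowest. The log2 fold change was 0.89 ± 0.08 (SE), or 1.85-fold (edgeR adjusted p = 5.56e-05).

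Acss2, the acetate-using enzyme (chromosome 2, 155517948 to 155585724), was the least abundant of the 10 genes. Its control teeth held 12.4, 9.35, 8.39, 8.94 and 9.69 CPM and its IGF1 teeth 42.3, 36.5, 32.9, 38.3 and 23.4 CPM. It rose 3.54-fold (log2 fold change 1.82 ± 0.13, edgeR adjusted p = 1.83e-05), and the rise was smallest in embryo 6, where it was 2.39-fold, against 4.23-fold in embryo 4. Acss2 overlaps Ggt7 and Gss on the opposite strand, and the use of strand in counting is not given in the sources used here. Ggt7 averaged 3.21 CPM in controls and 5.49 CPM with IGF1 (log2 fold change 0.78 ± 0.23, edgeR adjusted p = 0.0493), and Gss had a log2 fold change of -0.10 ± 0.12.

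Acaca, the acetyl-CoA carboxylase of the committed step (chromosome 11, 84129672 to 84401651), doubled. The control teeth lay between 174 and 202 CPM and the IGF1 teeth between 326 and 460 CPM, a log2 fold change of 1.05 ± 0.08 (edgeR adjusted p = 1.66e-05). Of the 31-base words in its transcripts, 31.7% also occur in the processed pseudogene Gm5182, so reads could be split between them. The pseudogene averaged only 2.76 CPM in controls and 1.92 CPM with IGF1, and was not called.

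Fasn, the multifunctional synthase that makes palmitate (chromosome 11, 120805846 to 120824547), was the second most abundant of the genes in CPM. It had 436, 345, 436, 505 and 407 CPM in the control teeth of embryos 1, 2, 3, 4 and 6, and 1059, 755, 861, 1106 and 976 CPM in the IGF1 teeth. The lowest IGF1 value, in embryo 2, was well above the highest control value, in embryo 4. The log2 fold change was 1.16 ± 0.07 (edgeR adjusted p = 2.82e-06), with per-embryo rises from 1.97-fold to 2.43-fold, the narrowest range of log2 ratios of the 10 genes (SD 0.12, n = 5, as narrow as that of Elovl5).

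The stearoyl-CoA desaturases Scd1 and Scd2 lie in a cluster with Scd3 and Scd4 on chromosome 19, Scd2 from 44293674 to 44306864 and Scd1 from 44394455 to 44407879. Scd1 had 46.4, 43.7, 42.6, 29.9 and 32.6 CPM in the control teeth and 251, 212, 221, 223 and 208 CPM in the IGF1 teeth. This is a 5.77-fold rise (log2 fold change 2.53 ± 0.10, edgeR adjusted p = 5.08e-07), and Scd1 had the smallest p-value of all 14504 genes tested, where it ranked 12 by size of increase. Scd2 was the most abundant of the 10 genes in both groups, with 758, 746, 689, 621 and 744 CPM in controls and 2075, 2249, 2291, 1950 and 1951 CPM with IGF1. It rose 2.96-fold (log2 fold change 1.56 ± 0.08, edgeR adjusted p = 8.91e-07). In both genes the groups were far apart, and embryo 4 had the lowest control tooth.

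The other members of the desaturase cluster were not called. Scd4 had a log2 fold change of 0.15 ± 0.25 at a mean of 5.02 CPM in controls, and Scd3, with 65 counts over all 10 samples, was too low to be tested. Scd1 shares 8.14% of its 31-base words with other genes and Scd2 shares 6.81%, mostly with Scd3. Some of their counts could therefore rest on how salmon split shared reads, and that part was not measured.

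Scd1 made up between 4.19% and 5.83% of the counts of both genes in control teeth and between 8.60% and 10.8% in IGF1 teeth. The log2 ratio of Scd1 exceeded that of Scd2 in 5 of 5 embryos, by 0.96 on average (SD 0.30). In an exact sign-flip permutation test over embryos (2-sided), 2 of the 32 sign assignments were as extreme, the fewest that 5 pairs allow, so the design cannot reach the 0.05 threshold.

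Fads1 and Fads2 stand near each other on chromosome 19, Fads2 from 10062765 to 10101746 and Fads1 from 10182888 to 10196877, with Fads3 beside Fads2. Fads2, the delta-6 desaturase that opens the polyunsaturated pathway, had 76.6, 56.5, 67.2, 63.8 and 65.6 CPM in controls and 221, 147, 157, 187 and 175 CPM with IGF1. It rose 2.67-fold (log2 fold change 1.42 ± 0.07, edgeR adjusted p = 1.20e-06). The delta-5 desaturase Fads1, which acts later, was almost constant among control teeth, from 95.8 to 104 CPM, and reached 175 to 229 CPM with IGF1 (2.01-fold, edgeR adjusted p = 4.47e-05). In both genes the groups did not overlap, and the IGF1 tooth of embryo 1 was highest. Their neighbour Fads3 had a log2 fold change of 0.42 ± 0.22 and was not called.

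Fads1 rose less than Fads2 in 5 of 5 embryos. The difference of their log2 ratios was -0.41 on average (SD 0.10), ranging from -0.52 to -0.27, and again 2 of 32 sign assignments were as extreme in the exact permutation test.

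The 2 elongases differed in the size of their change. Elovl6, which lengthens palmitate (chromosome 3, 129532355 to 129638495), had 88.6, 110, 125, 96.6 and 126 CPM in controls and 244, 211, 239, 256 and 257 CPM with IGF1. It rose 2.21-fold (log2 fold change 1.14 ± 0.09, edgeR adjusted p = 3.92e-05), most in embryo 1 (2.75-fold). Elovl5, the elongase of polyunsaturated chains (chromosome 9, 77917364 to 77984519), had 91.7, 115, 117, 118 and 112 CPM in controls and 119, 136, 128, 123 and 122 CPM with IGF1. Its groups were separate by a narrow margin, between 118.0 CPM in the control tooth of embryo 4 and 118.6 CPM in the IGF1 tooth of embryo 1.

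Elovl5 had a log2 fold change of 0.18 ± 0.07, with a 95% interval from 0.03 to 0.34, so a rise beyond 1.26-fold lay outside the interval. It did not pass the threshold (edgeR adjusted p = 0.124). The log2 ratio of Elovl6 was above that of Elovl5 in 5 of 5 embryos, by 0.96 on average (SD 0.26), with 2 of 32 sign assignments as extreme. These 3 gene pairs (Scd1 and Scd2, Fads1 and Fads2, Elovl6 and Elovl5) were the only ones tested, and Benjamini-Hochberg adjustment over them leaves each exact p as it was.

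Levels of different genes were compared per length, as CPM per kb of annotated exon. In control teeth Scd2 was highest (130 ± 10.4, SD, n = 5), followed by Acly (50.5 ± 4.76) and Fasn (38.9 ± 5.29). Elovl5 (31.4), Fads1 (20.8), Fads2 (20.02), Elovl6 (17.0), Acaca (10.9) and Scd1 (7.98) came next, and Acss2 was lowest at 0.959 ± 0.152. Among neighbours in this order, the ranges of control teeth overlapped for Acly and Fasn, Fasn and Elovl5, Fads1 and Fads2, and Fads2 and Elovl6, and were separate for the other 5 neighbouring pairs. With IGF1, Scd1 moved from rank 9 to rank 5 (45.5 ± 3.45) and Elovl5 from rank 4 to rank 8 (35.6 ± 1.88) on this length. These are ranks of means, and some ranges of IGF1 teeth overlapped. Scd1 (42.5 to 51.3) overlapped Fads1 (36.4 to 47.5), and Elovl5 (33.7 to 38.5) overlapped Elovl6 (32.8 to 39.9). When the longest transcript was used as length, Scd2, Acly, Fasn, Elovl5, Fads1 and Fads2 kept ranks 1 to 6 in controls, and Acaca was placed above Elovl6. Acss2 stayed lowest, at 2.70 CPM per kb. On that length Scd1 reached rank 6 with IGF1 (46.1 CPM per kb), below Fads1 (58.6), and Elovl5 rank 7 (45.1). The IGF1 teeth of Scd1 (43.0 to 51.9) and Elovl5 (42.6 to 48.8) overlapped there.

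**Figure D2:**
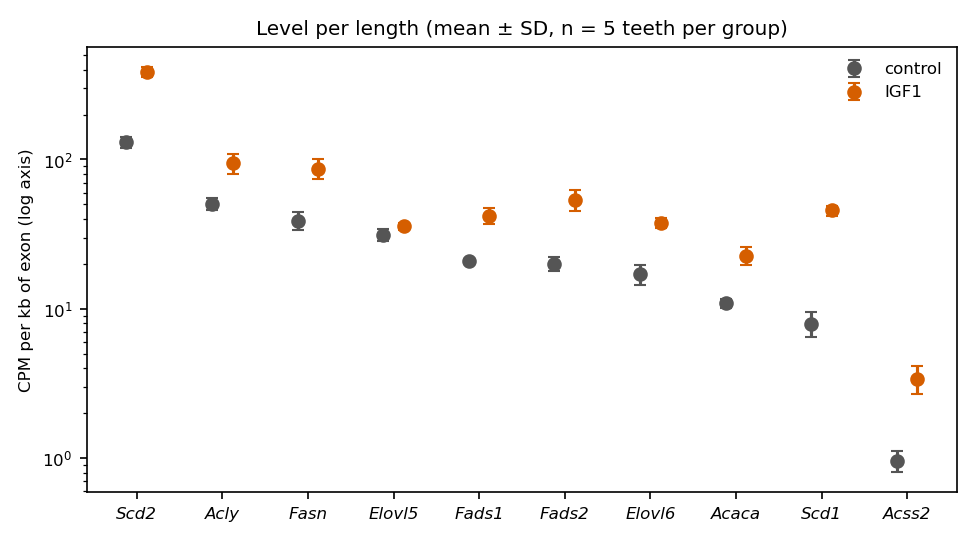
Level of each gene in CPM per kb of annotated exon (log axis) in control and IGF1 teeth, as mean and SD of 5 teeth, ordered by the control level. Scd2 is highest and Acss2 lowest in both groups. With IGF1 the mean of Scd1 passes those of Elovl5, Fads1, Elovl6 and Acaca on this length, though its teeth overlap those of Fads1. Per kb of longest transcript the mean of Scd1 does not pass that of Fads1.

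The size of the response varied modestly among embryos. The median log2 ratio of the 10 genes was 1.37, 1.03, 0.96, 1.29 and 1.22 in embryos 1, 2, 3, 4 and 6, and all 10 genes were above 0 in each embryo. Embryos 2 and 3 had the lowest medians. Acly, Acaca, Fasn, Scd1, Elovl6, Fads1 and Fads2 had their smallest ratio in one of these embryos, Acss2 had it in embryo 6 and Elovl5 in embryo 4. Scd2 differed, with its largest ratio in embryo 3 and its smallest in embryo 6. In the same teeth, 15 of 17 tested genes of the oxygen response were higher with IGF1, among them Bnip3 (log2 fold change 2.20 ± 0.33) and Egln3 (2.10 ± 0.43), and their median log2 ratio was 2.76 and 2.53 in embryos 2 and 3 against 0.61, 0.94 and 0.79 in embryos 1, 4 and 6. The summed level of the 18 listed oxygen response genes ran from 1099 to 1615 CPM in controls and from 2044 to 7183 CPM with IGF1. With embryos 2 and 3 left out, an alternative chosen after the data were seen, the same number of the 10 genes (9) was called. The median log2 fold change of the 10 genes was then 1.25. A higher median follows from leaving out the embryos with the lowest medians. A relation to the oxygen response was not tested.

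**Figure D3:**
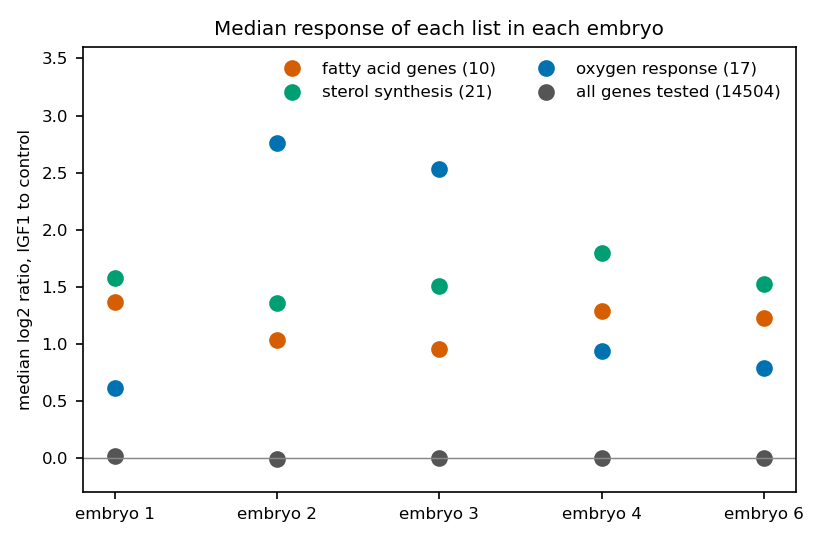
Median log2 ratio of IGF1 to control (vertical axis) in each embryo for the 10 fatty acid genes, 21 sterol synthesis genes, 17 oxygen response genes and all 14504 genes tested. The fatty acid median lies between 0.96 and 1.37, and the oxygen response median is above 2.5 in embryos 2 and 3 and below 1 in the other embryos.

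Around the pathway, lists of related genes were read against the same background, the 6.72% of all genes tested that were called higher and the 4.76% called lower. Of 8 tested genes in the supply list, which covers citrate export, NADPH and partners of the synthesis enzymes, 4 were higher and 0 lower, with a median log2 fold change of 0.42. The 4 were Slc25a1, the mitochondrial citrate carrier (1.02 ± 0.09), Me1 (0.71 ± 0.09) and Idh1 (0.71 ± 0.09), which make NADPH in the cytosol, and Mid1ip1, which promotes assembly of acetyl-CoA carboxylase into filaments (0.53 ± 0.14, edgeR adjusted p = 0.0300). The call of Mid1ip1 was lost without the replicate block (edgeR adjusted p = 0.0515), under DESeq2's Wald test (0.0690) and without embryo 1, 2, 4 or 6, with adjusted p-values up to 0.116. The pentose phosphate enzymes G6pdx and Pgd had log2 fold changes of 0.27 ± 0.09 and 0.32 ± 0.10 and were not called. The second carboxylase Acacb, which is tied to mitochondria, was low and not called (0.21 ± 0.17, with 7.15 CPM in controls), and Thrsp has no entry in the table used here.

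The elongation cycle needs further enzymes beside the elongases. Of 10 tested genes in that list 3 were higher and 0 lower (median log2 fold change 0.27). Hsd17b12, the ketoacyl-CoA reductase of the cycle, had 0.56 ± 0.07, Tecr, its final reductase, had 0.38 ± 0.08, and Elovl1, an elongase of very long saturated chains, had 0.52 ± 0.11. The call of Elovl1 was lost without embryo 4 (edgeR adjusted p = 0.0508). The dehydratases Hacd1, Hacd2, Hacd3 and Hacd4 were not called.

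Among other desaturation genes and electron donors, 1 of 6 tested was higher. This was Cyb5b, the cytochrome b5 of the mitochondrial outer membrane, at 0.85 ± 0.09 (edgeR adjusted p = 0.000302), whereas Cyb5a, the microsomal form that serves the desaturases, had a log2 fold change of -0.03 ± 0.07.

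Of 12 tested genes of fatty acid uptake and activation, 6 were higher and 1 lower. Fabp5, a fatty acid binding protein abundant in epithelia, rose from 89.7 ± 14.3 to 254 ± 76.8 CPM (SD, n = 5), a log2 fold change of 1.47 ± 0.18. Its IGF1 teeth of embryos 2 and 3 were highest, at 316 and 352 CPM, against 181 to 230 CPM in the other embryos. Its control teeth lay between 70.0 and 105 CPM. The acyl-CoA synthetases Acsl3 (0.67 ± 0.07), Acsl4 (0.69 ± 0.10) and Acsl6 (1.22 ± 0.31) were higher too, Acsl6 at only 1.05 CPM in controls. The other 2 higher genes, which the naming rule did not select, were the synthetase Acsl1 (0.52 ± 0.12) and the transporter family member Slc27a3 (0.47 ± 0.10). DESeq2's Wald test called 4 genes of the list higher, among them Fabp5, Acsl3 and Acsl4, and gave no value for Acsl6. Acsl1 and Slc27a3 were not followed gene by gene under the alternatives. The Acsl6 call was lost without embryo 1, 2, 4 or 6 (edgeR adjusted p-values up to 0.0872) and without the low-count filter (0.0522), and held in 4 of 9 alternatives that gave it a value. The lower gene, outside the naming rule and chosen after its value was seen, was the fatty acid transporter Slc27a1 (-0.33 ± 0.07), whose call was lost without the replicate block.

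Glycerolipid assembly had 3 of 12 tested genes higher, with a median log2 fold change of 0.14. Lpin1, the phosphatidate phosphatase, doubled (0.99 ± 0.13, edgeR adjusted p = 0.000993), and the acyltransferases Agpat5 (0.38 ± 0.08) and Gpat4 (0.26 ± 0.07) were also called higher. Gpat4 held its call in 3 of 11 alternatives. It was lost whichever embryo was left out (edgeR adjusted p-values up to 0.130), under DESeq2's Wald test (0.0582) and without the low-count filter (0.0541). Without the replicate block the calls of both were lost (adjusted p = 0.0654 for Agpat5 and 0.0913 for Gpat4). In mitochondrial fatty acid synthesis, a separate pathway that feeds lipoic acid production, 0 of 6 genes were called by edgeR, DESeq2 or limma-voom, and 1 of them, Hsd17b8, had an unadjusted p under 0.05 in edgeR.

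Of 17 tested genes of fatty acid oxidation, 0 were called higher and 1 was lower, a share of lower calls near the 4.76% of all genes tested, with a median log2 fold change of -0.05. At an unadjusted p under 0.05 edgeR had 0 higher and 4 lower, and DESeq2 and limma-voom also called 0 higher. Cpt1a, which admits acyl chains into mitochondria and is inhibited by malonyl-CoA, fell by 0.75 on the log2 scale (SE 0.08, edgeR adjusted p = 0.000241), from 72.1 ± 6.71 to 43.0 ± 4.10 CPM (SD, n = 5). The fall was present in 5 of 5 embryos.

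**Figure D4:**
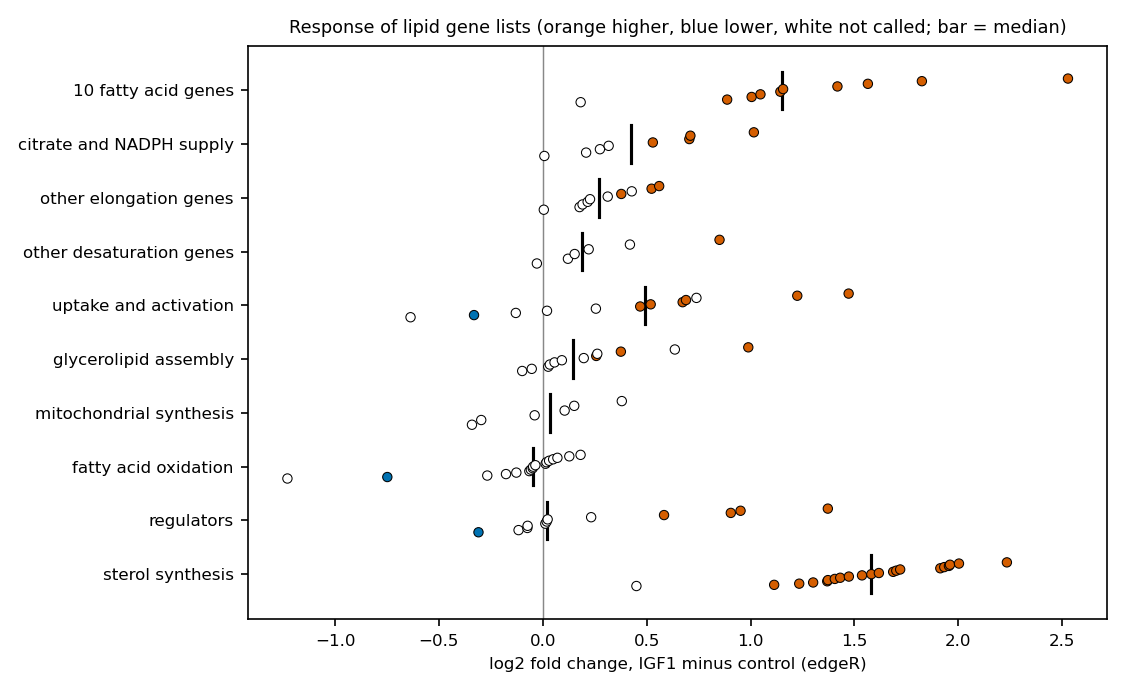
Log2 fold change of each tested gene (horizontal axis, edgeR) for the 10 fatty acid genes and 9 related lists, with orange points called higher, blue points called lower, white points not called and a bar at the median. The medians of the fatty acid and sterol lists are 1.15 and 1.58, and that of the oxidation list is -0.05.

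Among the regulators, 4 of 12 tested genes were higher and 1 was lower. Srebf1 rose from 62.1 ± 8.95 to 120 ± 12.8 CPM (log2 fold change 0.95 ± 0.09, edgeR adjusted p = 0.000130), and Srebf2 from 166 ± 16.9 to 311 ± 32.6 CPM (0.90 ± 0.06, adjusted p = 9.12e-06). Insig1, which holds their protein products in the endoplasmic reticulum and is itself one of their targets, rose by 1.37 ± 0.07 on the log2 scale. Its paralog Insig2 had a log2 fold change of -0.07 ± 0.11, and Scap, the escort of the proteins, had 0.02 ± 0.09. Prkaa2, a catalytic subunit of AMP-activated kinase, was higher (0.58 ± 0.15, adjusted p = 0.0272), but not without the replicate block (0.121), under DESeq2's Wald test (0.0615) nor without embryo 1, 2, 3 or 4 (0.0517 to 0.0940). The lower gene, again outside the naming rule, was Mbtps1, the protease that makes the first cleavage of the same proteins (-0.31 ± 0.07).

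The carbohydrate-sensing factor Mlxipl, with 83 counts in all, was too low to be tested, and its partner Mlx had a log2 fold change of 0.23 ± 0.09 without a call. The liver X receptors Nr1h2 (-0.12 ± 0.07) and Nr1h3 (0.01 ± 0.35, at 1.64 CPM in controls) were not called either.

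Sterol synthesis is the other arm of the same regulators. Of its 21 listed genes 20 were higher with IGF1, with a median log2 fold change of 1.58 beside 1.15 for the fatty acid genes. Scd1 alone of the 10 fatty acid genes lay above the highest sterol gene, Mvd (2.23 ± 0.12). Per embryo the sterol median was 1.58, 1.36, 1.504, 1.79 and 1.52, and in each of the 5 embryos it was above the fatty acid median.

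The 5 genes outside the set whose per-embryo log2 ratios lay closest to the median of the 10 genes (smallest root mean square distance over 5 embryos) were Fdft1 (0.167), Ankrd9 (0.173), Mvk (0.176), Slc4a4 (0.206) and Wdr72 (0.227). Fdft1 and Mvk encode squalene synthase and mevalonate kinase, and both are in the sterol list. Slc4a4, a sodium bicarbonate cotransporter, rose from 10.7 to 23.9 CPM on average. Ankrd9 and Wdr72 were low, at 2.69 and 1.99 CPM in controls, and Wdr72 lost its call without embryo 4 (edgeR adjusted p = 0.0554) and under DESeq2's Wald test (adjusted p = 0.0619).

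Promoter sequences, 250 bases before to 50 after the transcription start in RefSeq (GRCm38.p6), were found for 7 of the 10 genes (not for Scd1, Scd2 and Fads1) and searched on both strands. The entry for Acaca lies inside the gene as GENCODE draws it. A sterol regulatory element in the form TCACNCCAC was found in 0 of the 7, against 1.24% of all 32851 promoters of that length and 1 of 18 promoters of the sterol list. With a form this rare, 0 of 7 cannot show that the element is absent, and other forms of it were not searched. CCAAT, the box bound by NF-Y, was found in 4 of the 7 (Acss2, Elovl5, Acly and Fasn), against 37.4% of all promoters and 14 of 18 of the sterol list. At least 2 CCAAT boxes were found in Fasn and Elovl5 (11.7% of all promoters). The Sp1 box GGGCGG was found in Acss2, Acly and Fads2 (35.7% of all promoters), and the E-box CACGTG in Elovl5 only (7.15%). Stretches that stop 1 base short of the base just before the RefSeq start are given for the synthase that doubled, for the elongase that was not called and for the citrate enzyme, with CCAAT and GGGCGG on either strand in capitals. They lie on chr11:120824549-120824678 (minus strand), chr9:77917234-77917363 (plus strand) and chr11:100528002-100528131 (minus strand).
Fasn: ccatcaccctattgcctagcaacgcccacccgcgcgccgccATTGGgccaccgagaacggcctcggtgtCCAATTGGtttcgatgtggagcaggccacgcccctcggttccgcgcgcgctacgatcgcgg
Elovl5: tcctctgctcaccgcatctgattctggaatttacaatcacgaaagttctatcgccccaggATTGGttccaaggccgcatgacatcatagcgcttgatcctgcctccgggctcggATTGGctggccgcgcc
Acly: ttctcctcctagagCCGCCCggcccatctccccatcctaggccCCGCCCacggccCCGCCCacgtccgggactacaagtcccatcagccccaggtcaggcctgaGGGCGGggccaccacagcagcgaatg

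Counted from that start, where the base just before it is 1 and the last base printed is 2, CCAAT on either strand begins at its leftmost base 90, 62 and 59 bases before the start in Fasn, the latter 2 overlapping on opposite strands, and 71 and 17 bases before it in Elovl5. Both promoters hold repeated CCAAT boxes. Fasn rose 2.23-fold, and Elovl5, with a fold change of 1.13, did not pass the threshold. Acly, with 4 GGGCGG boxes and its CCAAT after the start, rose 1.85-fold. The letters describe these windows only, and elements farther away were not searched. Whether the boxes relate to the size of a response was not tested.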

How the data were processed

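RNA-seq was made from 10 single molars with the Ovation Mouse RNAseq System. The authors deposited estimated counts per gene, 1 column per tooth, without normalization; the submitters' processing notes name Trimmomatic 0.39, Salmon 0.99.0, DESeq2 and GRCm38. The transcript set, strand setting and low-count filter are not given in the sources used here, and the paper listed with the series does not describe this experiment. The values are whole numbers with 0 exceptions, so rounding changed none, and every gene has at least 10 counts over all samples. Symbols and positions came from GENCODE release 21, which holds 18276 of the 18381 identifiers.

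For 14504 genes left by filterByExpr, the quasi-likelihood test of edgeR was run with TMM scaling and embryo as a block. P-values were adjusted by Benjamini-Hochberg over all of them, and a gene was called when the adjusted value was under 0.05. Standard errors were derived from the F statistic. The block was used because both teeth of a number come from a single embryo; deviations from group means correlated within pairs at 0.302, 0.187, -0.0428, 0.149 and 0.292 (embryos 1, 2, 3, 4 and 6). Log2 ratios per embryo used a prior count of 1. No 2 samples of a group were as alike as counting error alone would make them (chi-square per degree of freedom 4.68 to 19.4). On simulated counts for this comparison, with a log2 change of 1 in 200 genes, 83.1% of the changed genes tested were called and 7.91% of calls were false.

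Named were the 10 genes, 10 regulators fixed by name, up to 4 called genes of each related list and the 5 nearest patterns. The genes and lists were chosen with earlier results of these data known. The alternatives were a fit with no replicate block, other filters, other prior counts, leaving out each embryo, limma-voom, and DESeq2 (its size factors in edgeR, and its own Wald test). Protein sequences were not used here. R 4.3.3, edgeR 4.0.16, limma 3.58.1 and DESeq2 1.42.0 were used.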

Additional observations from a re-analysis of the deposited data

Results flagged for a closer look

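In 98 groups of 5 teeth (49 named genes in each treatment), the tooth farthest from the rest was looked for by its gap to the nearest tooth over the range of the group. Such a tooth was found in 5 groups, where chance gives about 4.9 (1 in 20). The control tooth of embryo 1 had 91.7 CPM of Elovl5 against 112 to 118 CPM in the other controls (ratio 0.774). It also had 24.0 CPM of Egln3 against 8.98 to 11.4 CPM (ratio 0.842) and 2.06 CPM of Mlxipl against 0.591 to 0.851 CPM (ratio 0.823). This library has the lowest total count. Its Mlxipl value rests on few counts, as that gene had 83 over all 10 samples and was too low to be tested. The control tooth of embryo 3 had 2.60 CPM of Nr1h3 against 1.36 to 1.46 CPM (ratio 0.921), and the IGF1 tooth of embryo 3 had 231 CPM of Idi1 against 149 to 167 CPM (ratio 0.789). With embryo 1 left out, Elovl5 had a log2 fold change of 0.14 (edgeR adjusted p = 0.312).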

How the results depend on the processing

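All 9 called fatty acid genes kept their call and direction, and Elovl5 stayed without a call, in each of 12 alternatives; the highest adjusted p among the 9 was 0.000892 (Acly without embryo 4). For Elovl5 the adjusted p ran from 0.112 to 0.312. Without the replicate block 887 genes were called in place of 1666, 885 of them shared, with the same 9 members. The block also decided the calls of Mid1ip1, Agpat5, Gpat4, Prkaa2 and Slc27a1. Calls in the oxygen response list went from 15 to 14 without it. No other call named in the pathway lists and followed gene by gene changed. Acsl1, Slc27a3 and Mbtps1 were followed only through the counts of their lists, which without the block stayed the same in their direction. Under DESeq2's Wald test the uptake and activation list had 4 higher calls in place of 6. Leaving out each embryo gave 986 (without embryo 4) to 1602 called genes, with 994 without embryo 6. The differences within the 3 gene pairs kept their sign in all alternatives. Among the other named genes, 375 values kept their side of the threshold, 29 lost it and 8 reversed, all 8 of genes without a call. Nr1h3 had a log2 fold change of -0.0297 under limma-voom. Over the fits that leave out an embryo, Nr1h3 ran from -0.104 to 0.339 (below 0 without embryo 1, 2, 4 or 6), Scap from -0.0479 to 0.0895 (below 0 without embryo 2 or 6) and Insig2 from -0.161 to 0.0187 (above 0 without embryo 4). Fewer samples follow from leaving out an embryo; otherwise the cause was not tested. Low counts limit Acsl6, Mlxipl, Nr1h3 and Scd3.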
